A study of Mus musculus with 18 samples.

Results

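The Hox genes were followed from fibroblasts through partial and full reprogramming. Every gene of the array table whose single annotated symbol was Hox followed by a cluster letter, a to d, and a number was taken. This gave 37 genes of the 19937 genes with a single symbol: 10 of cluster A, 9 of cluster B, 9 of cluster C and 9 of cluster D. Each of the 37 was measured by 1 probe set.

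The study compared mouse cells made pluripotent by retroviral transfer of Oct4, Klf4 and Sox2 (pMX vectors) with the cells at either end of that process. There were 6 groups of 3 arrays. CD1 MEFs were primary embryonic fibroblasts at low passage. The partial line EOS3F-24 and the full lines EOS3F-28 and EOS3F-29 were each a single iPS clone, kept on arrested feeder cells with LIF and in puromycin at 1 μg/mL. The converted cells were EOS3F-24 after a MEK inhibitor at 2 μM and a GSK inhibitor at 12 μM, together called 2i, in ES medium with LIF. Whether puromycin was kept during 2i was not stated, so in comparisons of the converted cells the inhibitors, any change of puromycin and time in culture cannot be told apart, and "after 2i" below names the cells only. J1 cells were embryonic stem cells on feeders with LIF, and no agent of reprogramming is given for them. The MEFs were grown in serum without LIF, and no feeder layer is described for them, so cell state and culture cannot be told apart in any comparison with MEFs. The strain of the cells that gave the iPS lines was not stated. No label tells whether a group's 3 arrays are separate cultures, and the spread behind each p-value may therefore be technical.

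Hox genes encode homeodomain transcription factors that specify position along the body axis and along the limb. Within a cluster, genes at the end that holds the low-numbered paralogs act in anterior segments and those at the other end in posterior segments, limb tips and genital tissue. Fibroblasts keep the Hox pattern of the body site they came from through culture, while in pluripotent cells the clusters are held silent by Polycomb proteins.

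In RefSeq's table for GRCm38.p6, 21 of the 37 genes had at least 1 promoter sequence, and the 250 bases before the start were used. From each cluster the gene is shown whose level in the partial line exceeded that of the full lines by most among those with an entry, since these genes were high in the partial line and low after 2i. They are Hoxa9 (chr6:52227371-52227620, minus strand), Hoxb4 (chr11:96318017-96318266, plus strand), Hoxc4 (chr15:103034145-103034394, plus strand) and Hoxd13 (chr2:74667975-74668224, plus strand). In cluster C only Hoxc4 had an entry, and Hoxc8, without one, differed more (0.815 against 0.703 for Hoxc4). The Hoxc4 window lies within the annotated span of its gene (chr15:103018097-103036856). The sequences run 5′ to 3′ on the gene's strand and the capitals mark CG dinucleotides.
Hoxa9: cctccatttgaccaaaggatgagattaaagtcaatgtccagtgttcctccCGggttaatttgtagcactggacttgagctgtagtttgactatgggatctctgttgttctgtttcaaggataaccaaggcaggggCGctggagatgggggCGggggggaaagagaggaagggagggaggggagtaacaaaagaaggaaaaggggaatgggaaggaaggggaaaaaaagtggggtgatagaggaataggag
Hoxb4: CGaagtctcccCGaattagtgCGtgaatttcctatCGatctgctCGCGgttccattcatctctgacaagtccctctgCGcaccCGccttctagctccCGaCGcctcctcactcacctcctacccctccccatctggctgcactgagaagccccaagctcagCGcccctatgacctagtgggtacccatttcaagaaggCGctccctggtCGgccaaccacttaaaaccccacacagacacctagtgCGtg
Hoxc4: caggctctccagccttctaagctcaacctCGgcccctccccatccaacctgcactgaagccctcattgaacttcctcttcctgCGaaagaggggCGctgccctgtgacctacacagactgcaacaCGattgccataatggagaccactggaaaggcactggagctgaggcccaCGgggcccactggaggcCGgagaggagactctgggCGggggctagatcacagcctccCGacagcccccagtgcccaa
Hoxd13: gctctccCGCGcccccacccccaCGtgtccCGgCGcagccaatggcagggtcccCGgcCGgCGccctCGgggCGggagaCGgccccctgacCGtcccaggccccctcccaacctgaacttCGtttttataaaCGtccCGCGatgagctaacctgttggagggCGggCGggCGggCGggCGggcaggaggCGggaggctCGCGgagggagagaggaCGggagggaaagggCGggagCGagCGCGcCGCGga
The 4 sequences differed widely in CG content, with 3 CG dinucleotides in Hoxa9, 14 in Hoxb4, 8 in Hoxc4 and 31 in Hoxd13. Over the 23 Hox promoters the median was 13, against 6 over all 32841 promoters of the table, and the median GC content was 59.2% against 52.4%. The homeodomain core TAATTA was found in 2 of the 23 (8.7%, with 4.8% of all promoters), both of them entries of Hoxd11. TGATNNAT, bound by Hox proteins with Pbx, was found in 3 of the 23 (13%, with 7.7% of all). Both strands were searched. Neither motif was in the 4 sequences shown.

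Hox values were low on this array. They ran from 2.98 to 6.24 on the log2 scale with a median of 4.09. The median over all probe sets of an array, with or without a gene symbol, was 3.92 to 4.11. One unit is a 2-fold difference in signal, and differences this near the array's background are compressed. In bulk RNA, fewer cells with a transcript and less transcript per cell cannot be told apart. The labels were checked on marker genes. Pou5f1, which encodes Oct4 and was also a transgene here, was 7.79 higher in the partial line than in MEFs and 6.43 higher in the full lines, whereas Nanog, an endogenous pluripotency factor, was 1.15 and 4.98 higher. All 10 pluripotency genes were called higher than in MEFs in the full lines, the J1 cells and the converted cells, and 9 of the 10 in the partial line. Of 22 fibroblast and feeder genes, 17 were called lower in the partial line than in MEFs, 18 in the full lines, 19 in J1 cells and 18 in the converted cells, and 1, Dcn, was called higher in each. Thy1, a fibroblast surface protein, differed from MEFs by -1.90 in the partial line and -1.94 in the full lines.

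The fibroblast signal differed between arrays within the groups other than MEFs. The mean of the 22 genes was 8.97 to 9.17 in MEFs and 6.25 to 8.23 in the other arrays. In each of the 5 groups other than MEFs it was highest in replicate 1. It was 7.94 there in the partial line, 7.39 in the converted cells, 7.63 in EOS3F-28, 8.23 in EOS3F-29 and 7.38 in J1 cells. Counts of Hox genes are therefore given with and without these 5 arrays. Calls over all genes were not counted without these arrays, so those Hox counts have no share beside them.

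Against MEFs, the fully reprogrammed and ES cells had lower levels of some Hox genes in each of the 4 clusters. In the full lines 16 of the 37 were called lower (limma, adjusted p under 0.05) and 0 higher, where 17.8% of all genes were called lower and 17.1% higher. In J1 cells 16 were lower and 2 higher (17.5% and 20.6% of all genes), and in the converted cells 16 were lower and 0 higher (17.9% and 19.6%). The median difference of the 37 genes was -0.15 in the full lines, -0.24 in J1 cells and -0.28 in the converted cells, beside 0.04, 0.06 and 0.03 over all genes. Without the 5 replicate 1 arrays the counts called lower were 14, 15 and 16. These comparisons share the MEF arrays, as does that of the partial line.

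The partial line stood differently. Of its 37 Hox genes 4 were called higher than in MEFs and 4 lower, with 13.7% of all genes higher and 10% lower. Both counts were thus near the shares of all genes or below them. Its median difference was 0.09, beside 0.04 over all genes. When each array was centred on housekeeping genes it turned to -0.07, and the median over all genes to -0.12. The split of the calls moved with the scaling, to 2 higher and 7 lower after cyclic loess and 0 higher and 1 lower after housekeeping centring. Of all 19937 genes, 2181 were higher and 2550 lower after cyclic loess, and 912 and 1816 after housekeeping centring. The 16 genes called lower in the full lines had a median difference from MEFs of -0.60 there, -0.89 in J1 cells, -0.75 in the converted cells and -0.16 in the partial line. These genes were picked by that call, so the size of the full-line value follows from the choice. The other medians use the same MEF arrays, so the choice can lower them too. Over all 37 genes the median was -0.15 in the full lines and 0.09 in the partial line. Without the replicate 1 arrays, 4 Hox genes were higher and 2 lower in the partial line than in MEFs.

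**Figure D1:**
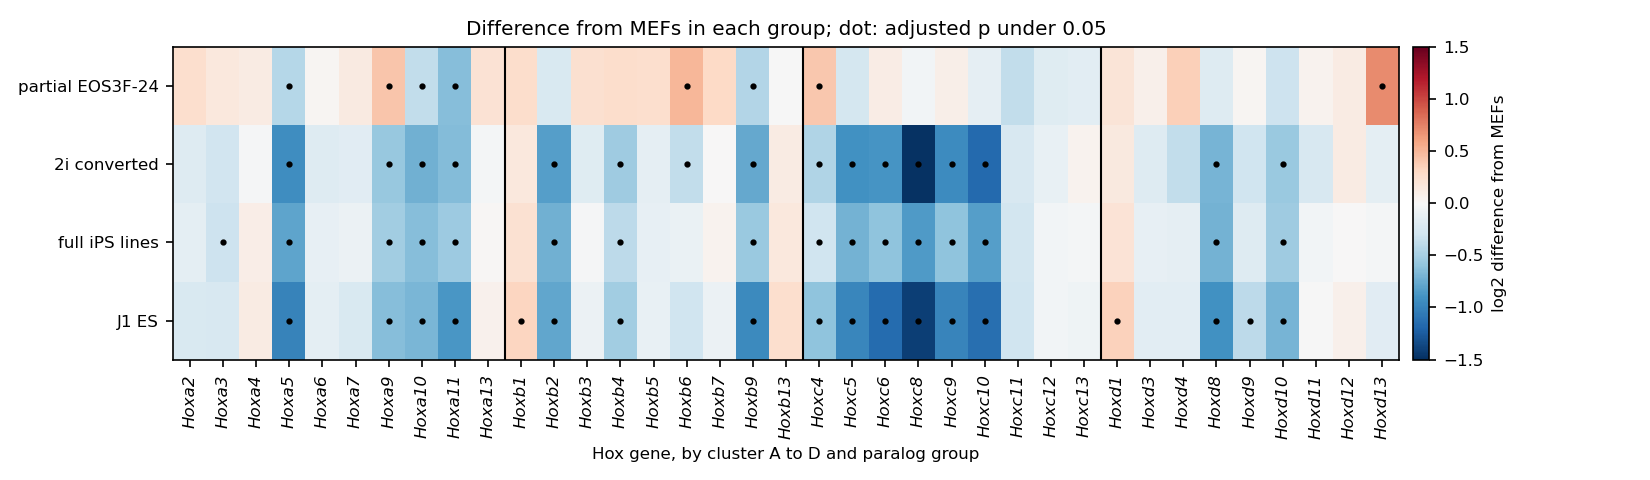
Difference from MEFs on the log2 scale (colour) for the 37 Hox genes (columns, by cluster and paralog group) in 4 groups of cells (rows); dots mark an adjusted p under 0.05 in limma. The partial line has 8 dots, 4 of them higher, and the other rows have 16 to 18, nearly all lower.

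The cluster C genes Hoxc4, Hoxc5, Hoxc6, Hoxc8, Hoxc9 and Hoxc10, which pattern the trunk and the level of the hindlimb, were called lower than in MEFs in all 3 pluripotent states. The median of the 9 cluster C genes was -0.60 in the full lines, -0.98 in J1 cells and -0.88 in the converted cells, and -0.13 in the partial line. Hoxc11, Hoxc12 and Hoxc13, the posterior end of the cluster, passed the test in none of the 10 comparisons, and their values were 3.22 to 4.02.

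Hoxc8, a factor of the mid-trunk, was 5.81, 5.78 and 6.17 in MEFs and 5.93, 6.24 and 5.47 in the partial line. In the full lines it was 5.39, 5.15 and 5.08 (EOS3F-28) and 5.36, 4.66 and 4.76 (EOS3F-29). It was 4.64, 4.34 and 4.31 in the converted cells and 4.75, 4.50 and 4.26 in J1 cells. MEFs and the partial line overlapped, and every array of the other groups lay below both. The difference from MEFs was -1.49 (SE 0.20, limma adjusted p = 1.46e-05) in the converted cells, -1.42 (SE 0.20, adjusted p = 2.41e-05) in J1 cells and -0.85 (SE 0.17, adjusted p = 0.000842) in the full lines. For the partial line it was -0.04, with a 95% confidence interval of -0.46 to 0.39.

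Hoxc10, which acts at the lumbar level and in the hindlimb, was 4.62, 4.86 and 4.94 in MEFs and 4.86, 4.63 and 4.54 in the partial line. It was 3.69, 3.47 and 3.74 in the converted cells and 3.91, 3.74 and 3.36 in J1 cells. It was 4.28, 3.72 and 3.91 in EOS3F-28 and 4.21, 3.90 and 3.88 in EOS3F-29, so that the full lines overlapped the converted and J1 arrays. No array of the full, converted or J1 groups reached the lowest MEF or partial array. The differences from MEFs were -1.17 (converted; SE 0.16, limma adjusted p = 1.78e-05), -1.14 (J1; SE 0.16, adjusted p = 2.41e-05), -0.82 (full; SE 0.14, adjusted p = 0.000152) and -0.13 (partial; 95% confidence interval -0.47 to 0.21).

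Hoxc9, a factor of the thoracic level, was 4.86, 5.27 and 5.05 in MEFs and 5.17, 5.17 and 5.10 in the partial line. It was 4.63, 4.42 and 4.55 in EOS3F-28, 4.58, 4.20 and 4.37 in EOS3F-29, 4.18, 4.11 and 4.08 in the converted cells and 4.21, 3.87 and 4.14 in J1 cells. The partial arrays lay within the MEF range and all others below it. The differences from MEFs were -0.99 (J1; SE 0.12, limma adjusted p = 5.86e-06), -0.94 (converted; SE 0.12, adjusted p = 1.02e-05) and -0.60 (full; SE 0.11, adjusted p = 0.000218), and that of the partial line was 0.09 (95% confidence interval -0.17 to 0.35).

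Hoxc6, which acts in the anterior trunk, was 4.94, 5.28 and 5.52 in MEFs and 5.13, 5.63 and 5.30 in the partial line. It was 4.56, 4.29 and 4.25 in the converted cells and 4.21, 3.98 and 4.08 in J1 cells. In the full lines it was 4.88, 4.53 and 4.68 (EOS3F-28) and 5.24, 4.23 and 4.28 (EOS3F-29). The first EOS3F-29 array overlapped both MEFs and the partial line, while the converted and J1 arrays lay below both. The difference from MEFs was -1.16 in J1 cells (SE 0.22, limma adjusted p = 0.000368), -0.88 in the converted cells (SE 0.22, adjusted p = 0.00351) and -0.60 in the full lines (SE 0.19, adjusted p = 0.0179). Hoxc6 lost the last of these calls without MEF replicate 2 (adjusted p = 0.0571, limma) or MEF replicate 3 (0.117), and with EOS3F-29 left out (0.068). For Hoxc6 and Hoxc8 alike, replicate 1, with the highest fibroblast signal, was the highest array of the converted cells, of EOS3F-28, of EOS3F-29 and of J1 cells, but not of the partial line; the part of fibroblast RNA in these values was not tested.

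Hoxc4 was higher in the partial line than in MEFs and lower in the pluripotent groups. It was 4.22, 4.58 and 4.45 in MEFs and 4.66, 4.75 and 5.06 in the partial line. It was 4.13, 3.96 and 3.83 in the converted cells, 4.06, 4.16 and 4.05 in EOS3F-28, 4.18, 4.04 and 4.24 in EOS3F-29 and 3.75, 3.89 and 3.79 in J1 cells. All partial arrays lay above all MEF arrays, and the highest full-line array overlapped the lowest MEF array. The partial line exceeded MEFs by 0.41 (SE 0.12, limma adjusted p = 0.0187), and the difference of J1 cells from MEFs was -0.61 (SE 0.12, adjusted p = 0.000574). The rise of Hoxc4 in the partial line missed the threshold without partial replicate 3 (adjusted p = 0.124, limma), without MEF replicate 1 (0.11), with only these arrays in the fit (0.0628), after cyclic loess (0.096) and after housekeeping centring (0.582). Its fall in the full lines, -0.29 (adjusted p = 0.0346), missed it with EOS3F-28 left out (0.109), without MEF replicate 2 (0.195), without MEF replicate 3 (0.103), without EOS3F-29 replicate 2 (0.073), without EOS3F-28 replicate 1 (0.0565), without EOS3F-28 replicate 3 (0.0608) and without the 5 replicate 1 arrays (0.0593).

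**Figure D2:**
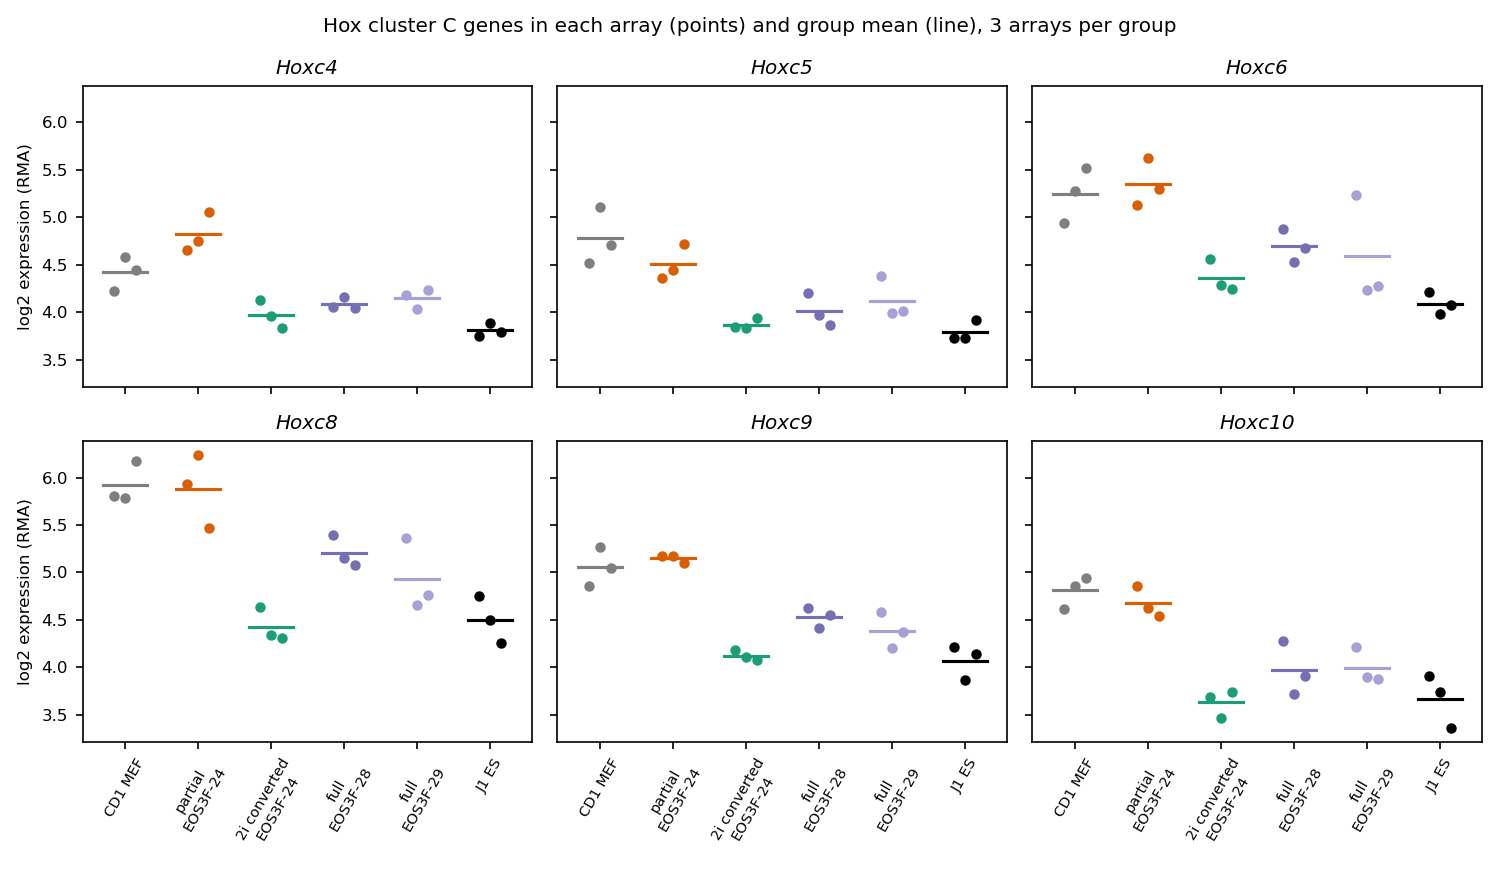
Log2 expression (vertical axis) of 6 cluster C genes in each array (points) and the mean of the 3 arrays (line), by group. For Hoxc8 the MEF and partial arrays lie between 5.47 and 6.24 and the converted arrays between 4.31 and 4.64.

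Of the other clusters, cluster A had 5 of 10 genes lower in the full lines than in MEFs, 4 in J1 cells and 4 in the converted cells. Hoxa5, Hoxa9, Hoxa10 and Hoxa11 made up 4 of each count, and the fifth in the full lines was Hoxa3, at -0.31 there and at -0.24 in J1 cells and -0.28 in the converted cells, which did not pass. The call of Hoxa3 was lost without MEF replicate 3 (limma adjusted p = 0.137), with EOS3F-29 left out (0.259), after housekeeping centring (0.171) and without the 5 replicate 1 arrays (0.0758). That of Hoxb4 in the full lines was lost without MEF replicate 3 (0.065) and after housekeeping centring (0.0727). Cluster B had 3, 3 and 4 of 9 lower: Hoxb2, Hoxb4 and Hoxb9 in each, with Hoxb6 added in the converted cells. Cluster D had 2, 3 and 2 of 9 lower: Hoxd8 and Hoxd10 in each, with Hoxd9 added in J1 cells. Of all genes 17.8% were called lower in the full lines, 17.5% in J1 cells and 17.9% in the converted cells. The counts of cluster D in the full lines and the converted cells were near these shares, and its full-line median was -0.12. The J1 cells also had 2 genes called higher than MEFs, the anterior genes Hoxb1 (0.32, limma adjusted p = 0.0486) and Hoxd1 (0.34, adjusted p = 0.0498). Leaving out 1 of the 6 arrays at a time, each of these calls held in 1 of 6 fits, with adjusted p up to 0.162 for Hoxb1 and 0.189 for Hoxd1, and that of Hoxd9 (adjusted p = 0.0186) in 2 of 6. All these were named after their values were seen.

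The 4 genes called higher in the partial line than in MEFs came from all 4 clusters. Their share of the Hox genes was below the 13.7% of all genes called higher. Hoxd13, which patterns digits and the genital tubercle, was 3.98, 4.01 and 4.20 in MEFs and 4.76, 4.94 and 4.62 in the partial line. It was 4.12, 3.59 and 4.03 in the converted cells, 4.14, 3.74 and 4.14 in EOS3F-28, 4.05, 4.04 and 4.10 in EOS3F-29 and 4.11, 3.80 and 3.76 in J1 cells. The 3 partial arrays lay above all 15 others, which overlapped each other. The partial line exceeded MEFs by 0.71 (SE 0.15, limma adjusted p = 0.0015), the largest called rise of any Hox gene against MEFs, and housekeeping centring was the only alternative tested on Hoxd13 that ended the call (0.55, adjusted p = 0.132). The other groups differed from MEFs by -0.03 (full), -0.15 (converted) and -0.17 (J1), none of them called.

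Hoxb6, a trunk and limb factor, was 4.55, 4.42 and 4.79 in MEFs and 5.18, 5.16 and 4.91 in the partial line. It was 4.37, 3.99 and 4.28 in the converted cells, 4.70, 4.43 and 4.53 in EOS3F-28, 4.64, 4.19 and 4.38 in EOS3F-29 and 4.35, 4.26 and 4.27 in J1 cells. The partial arrays lay above all others, and the full lines overlapped MEFs. The partial line exceeded MEFs by 0.50 (SE 0.14, limma adjusted p = 0.0115). For Hoxb6 this call did not survive leaving out partial replicate 2 (adjusted p = 0.0501, limma) or MEF replicate 2 (0.0558), or housekeeping centring (0.412). The converted cells fell by 0.37 against MEFs (adjusted p = 0.0391), a call lost without converted replicate 2 (0.201), converted replicate 3 (0.0591), MEF replicate 1 (0.0677) or MEF replicate 3 (0.18), with only these arrays in the fit (0.0684) and with all probe sets tested (0.0572).

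Hoxa9, which acts in the posterior trunk and in blood progenitors, was 4.74, 4.56 and 4.58 in MEFs and 5.20, 5.06 and 4.86 in the partial line. It was 4.17, 4.07 and 3.94 in the converted cells and 4.14, 3.99 and 3.84 in J1 cells. In the full lines it was 4.17, 4.01 and 4.34 (EOS3F-28) and 4.25, 3.85 and 4.0 (EOS3F-29). The partial arrays lay above the MEF arrays and these above all others. The partial line exceeded MEFs by 0.41 (SE 0.13, limma adjusted p = 0.0243), while the full lines were at -0.52 (SE 0.11, adjusted p = 0.00113), the J1 cells at -0.64 (SE 0.13, adjusted p = 0.000633) and the converted cells at -0.57 (SE 0.13, adjusted p = 0.00168). The rise of Hoxa9 missed the threshold without partial replicate 1 (adjusted p = 0.106, limma), partial replicate 2 (0.0708), MEF replicate 2 (0.0716) or MEF replicate 3 (0.0764), after cyclic loess (0.0883), after housekeeping centring (0.601) and without the 5 replicate 1 arrays (0.0821).

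The 4 genes called lower in the partial line were the limb and trunk genes Hoxa5, Hoxa10, Hoxa11 and Hoxb9, at -0.42, -0.37, -0.64 and -0.44. Their differences in the full lines were -0.80, -0.64, -0.54 and -0.56. For Hoxa11, a gene of the middle limb segment, MEFs were 4.69, 4.69 and 4.70 and the partial line 4.20, 3.98 and 4.0, and the 3 partial arrays lay inside the range of the full lines (3.89 to 4.35). Neighbouring genes of cluster A thus stood at different levels in the partial line relative to MEFs, with Hoxa9 above and Hoxa10 and Hoxa11 below. The call of Hoxa10 (limma adjusted p = 0.0415) was lost without any 1 of the 6 arrays compared (adjusted p from 0.0546 to 0.149), and those of Hoxa5 (0.0271) and Hoxb9 (0.0438) each held in 2 of the 6 fits that left out 1 array (0.00899 to 0.12 and 0.0258 to 0.202). That of Hoxa11 (0.00137) held in all 6.

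**Figure D3:**
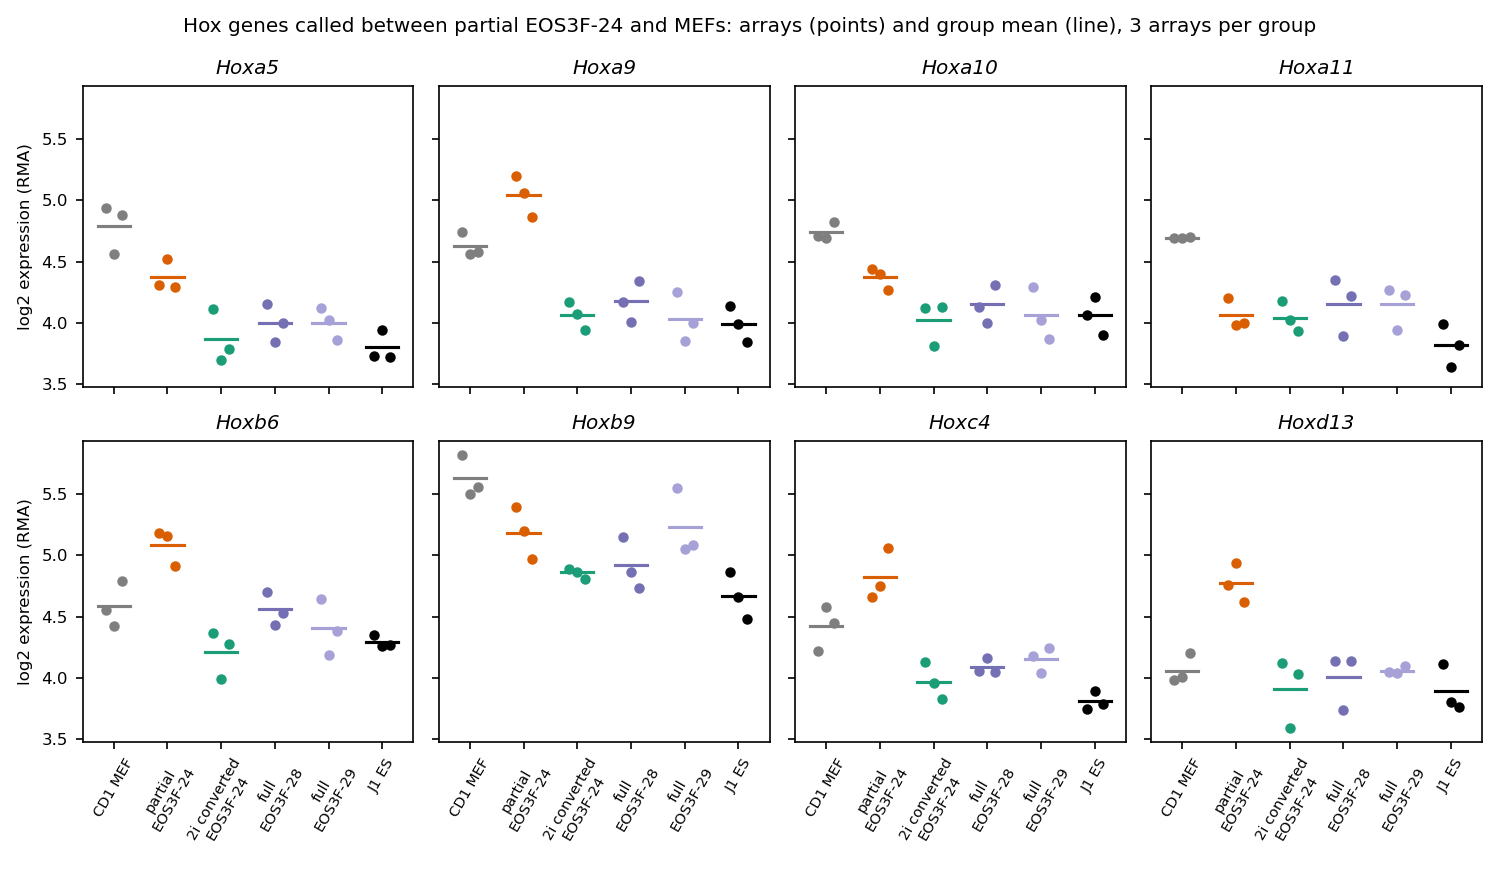
Log2 expression (vertical axis) of the 8 Hox genes called between the partial line and MEFs, in each array (points) with the mean of 3 (line), by group. Hoxd13 in the partial line lies between 4.62 and 4.94 and is at most 4.20 in the MEF arrays.

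Set against the full lines, the partial line had 17 of the 37 Hox genes called higher and 0 lower, where 12.8% of all genes were higher and 5.78% lower. The median difference of the 37 was 0.25, against 0.01 over all genes. After housekeeping centring 7 were called higher with a median of 0.14. Over all 19937 genes, 853 were then called higher and the median was -0.11. The 6 Hox genes whose highest group mean was at least 5 had a median of 0.70. Hoxa9 and Hoxb6 reached that level only in the partial line (5.04 and 5.08), so the choice itself can raise this median. These 17 were 4 of 10 in cluster A, 4 of 9 in cluster B, 6 of 9 in cluster C and 3 of 9 in cluster D. By position, 3 of 7 genes of paralog groups 1 to 3 were higher, 10 of 14 of groups 4 to 8 and 4 of 16 of groups 9 to 13. The largest differences were those of Hoxa9 (0.93, SE 0.11, limma adjusted p = 8.35e-06), Hoxc8 (0.81, SE 0.17, adjusted p = 0.00258), Hoxd13 (0.74, SE 0.13, adjusted p = 0.000411) and Hoxc6 (0.71, SE 0.19, adjusted p = 0.0122). Of the fibroblast and feeder genes, 0 of 22 were called between the partial line and the full lines in limma, 1 had an unadjusted p under 0.05, and the median difference was 0.03. Without the 5 replicate 1 arrays 16 Hox genes were higher. In this comparison Hoxc6 missed the threshold without partial replicate 2 (adjusted p = 0.101) and with EOS3F-29 left out (0.0522).

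Against J1 cells the partial line had 21 Hox genes called higher and 0 lower (13.3% and 9.65% of all genes), with a median of 0.39. After housekeeping centring 10 were higher, beside 1187 of all 19937 genes. Without the 5 replicate 1 arrays 17 were higher. Differences of at least 2-fold were those of Hoxc8 (1.38), Hoxc6 (1.26), Hoxc9 (1.08), Hoxa9 (1.05), Hoxc4 (1.01) and Hoxc10 (1.01). In each of these 6 genes no partial array overlapped a J1 array, which their choice by this same difference makes likely. Of all genes, picked by no such rule, 36.6% had no overlap. The fibroblast list again had 0 of 22 called in limma, 3 with an unadjusted p under 0.05, and a median of 0.37; its part in the Hox differences was not tested.

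The converted cells had lower levels of Hox genes from all 4 clusters than the partial line they came from. Between converted and partial cells 18 of 37 were called lower and 0 higher, where 13% of all genes were lower and 9.36% higher, and the median was -0.35. The 18 were 4 of 10 in cluster A, 5 of 9 in B, 6 of 9 in C and 3 of 9 in D. By position they were 4 of 7 in paralog groups 1 to 3, 10 of 14 in groups 4 to 8 and 4 of 16 in groups 9 to 13. In 27 of the 37 genes all converted arrays lay below all partial arrays and in 1 all lay above, where 37.8% of all genes had no overlap in either direction. Hoxc8 fell by 1.45 (SE 0.20, limma adjusted p = 3.78e-05), Hoxc10 by 1.04 (SE 0.16, adjusted p = 0.000115), Hoxc9 by 1.03 (SE 0.12, adjusted p = 7.73e-06) and Hoxa9 by 0.98 (SE 0.13, adjusted p = 2.01e-05). Hoxd13 fell by 0.86 (SE 0.15, adjusted p = 0.000298) and Hoxb6 by 0.87 (SE 0.14, adjusted p = 0.000127). Fibroblast genes had a median of -0.42 in the same comparison, with 0 of 22 called in limma and 3 at an unadjusted p under 0.05, and without the 5 replicate 1 arrays 13 Hox genes were called lower.

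**Figure D4:**
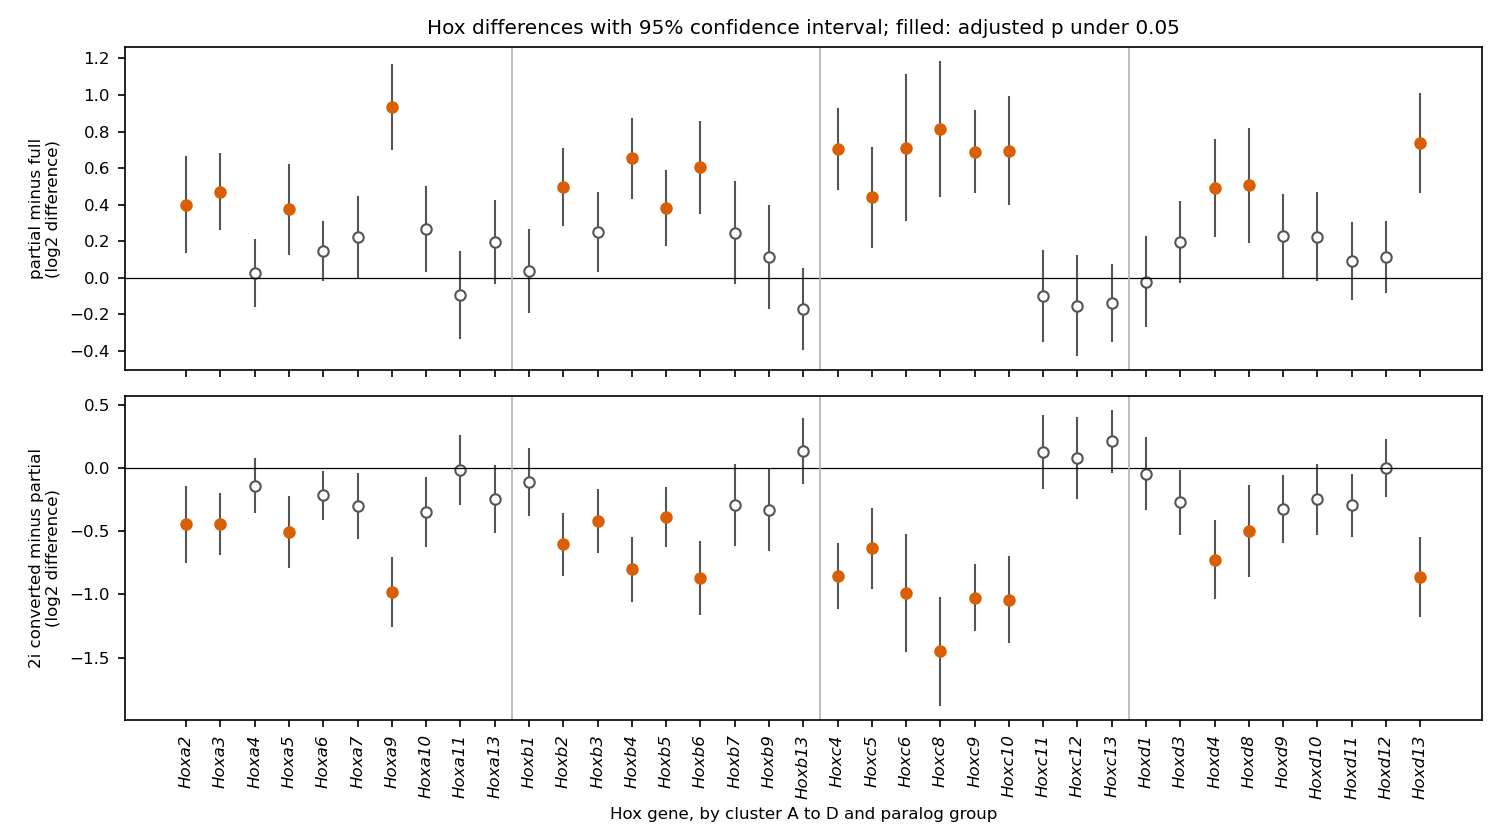
Differences on the log2 scale with 95% confidence intervals for the 37 Hox genes, by cluster and paralog group: partial minus full lines (upper panel) and converted minus partial (lower panel), filled where the adjusted p in limma was under 0.05. All filled points lie above 0 in the upper panel (17) and below 0 in the lower panel (18); both panels use the partial arrays.

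Converted and J1 cells were not compared with each other. Between the converted cells and the full lines 1 Hox gene was called lower, Hoxc8 (-0.64, SE 0.17, limma adjusted p = 0.041), and 0 higher, with 1.2% of all genes lower and 3.96% higher. The highest converted array of Hoxc8 (4.64) lay just below the lowest full-line array (4.66). The call of Hoxc8 was lost without converted replicate 2 (adjusted p = 0.2, limma) or 3 (0.195), without EOS3F-29 replicate 1 (0.0692), without EOS3F-28 replicate 1 (0.0891), 2 (0.0536) or 3 (0.0562), with EOS3F-28 left out (0.257), with all probe sets tested (0.0686) and without the 5 replicate 1 arrays (0.0714). Fibroblast genes stood at a median of -0.46 in this comparison, with 0 of 22 called in limma and 5 at an unadjusted p under 0.05.

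Between the full lines and J1 cells 1 Hox gene was called higher, Hoxc9 (0.39, SE 0.11, limma adjusted p = 0.0445), and 0 lower (1.29% and 3.47% of all genes). Hoxc8 (0.56, adjusted p = 0.0765) and Hoxc6 (0.55, adjusted p = 0.115) were further apart in their means and did not pass. The call of Hoxc9 was lost without J1 replicate 2 (0.233) or 3 (0.124), EOS3F-29 replicate 1 (0.0905) or 3 (0.0626), EOS3F-28 replicate 1 (0.0949) or 3 (0.0802), with EOS3F-28 left out (0.253), with only these arrays in the fit (0.123), with all probe sets tested (0.0764), with trend and robust eBayes (0.0522), after housekeeping centring (0.552) and without the 5 replicate 1 arrays (0.141). Between EOS3F-28 and EOS3F-29 0 of 37 Hox genes were called in either direction in limma (0.301% of all genes higher, 0.231% lower), 2 had an unadjusted p under 0.05, and the count was 0 in every alternative run.

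Over the 18 arrays, the mean of the 9 cluster C genes and the mean of the fibroblast genes did not order the groups alike. MEFs stood at 4.42 to 4.69 for cluster C with fibroblast means of 8.97 to 9.17. The partial line stood at 4.50 to 4.58 for cluster C with fibroblast means of 6.71 to 7.94. The full lines stood at 3.99 to 4.26 for cluster C with fibroblast means of 6.50 to 8.23. The partial line thus lay above every full-line array in cluster C, while the fibroblast means of these groups overlapped. It also lay above them in clusters A (4.20 to 4.29 against 3.82 to 4.04), B (4.54 to 4.70 against 4.25 to 4.50) and D (4.10 to 4.16 against 3.75 to 3.95). The part of fibroblast RNA in these levels was not tested.

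**Figure D5:**
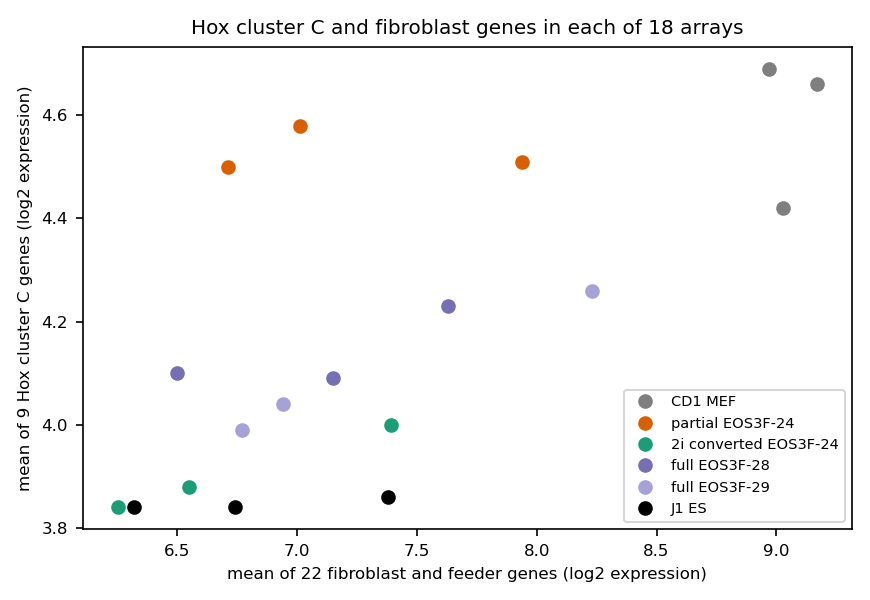
Mean log2 expression of 9 Hox cluster C genes (vertical axis) against that of 22 fibroblast and feeder genes (horizontal axis) in each of the 18 arrays, coloured by group. The 3 partial arrays lie at 4.50 to 4.58 on the vertical axis, level with the MEF arrays, at fibroblast means of 6.71 to 7.94, below the MEF arrays.

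Hox proteins bind DNA with cofactors. Of 8 measured cofactors of the Pbx, Meis and Pknox families, 5 were called lower than MEFs in the partial line, 6 in the full lines, 5 in J1 cells and 5 in the converted cells, and 0 higher, beside 10%, 17.8%, 17.5% and 17.9% of all genes lower. Meis1 and Meis2, which bind DNA together with posterior Hox proteins, differed from MEFs by -0.72 and -0.52 in the partial line and by -1.60 and -1.27 in the full lines. After 2i they differed from the partial line by -0.84 and -0.90. Between the partial and full lines 3 of the 8 were called higher in the partial line (12.8% of all genes), Meis1 (0.88) and Meis2 (0.75) among them, and 0 lower.

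Retinoic acid induces Hox genes in the embryo. Of 17 measured genes of its synthesis, binding and receptors, 2 were called higher and 2 lower in the partial line than in MEFs, shares near those of all genes (13.7% and 10%): Aldh1a2, a synthesizing dehydrogenase, by 1.51, Rxrb, a receptor subunit, by 0.42, and Dhrs3 (-1.12) and Aldh1a3 (-0.98) lower. Against the full lines 2 of the 17 were called higher in the partial line, again near the share of all genes (12.8%): Crabp2, a carrier of retinoic acid, by 1.44 and Aldh1a2 by 1.36. Both were called lower after 2i, at -1.97 for Crabp2 and -1.25 for Aldh1a2. Of 8 ParaHox and Evx genes, relatives of the Hox genes, 3 were called higher in the partial line than in MEFs (13.7% of all genes), with Cdx2, an activator of trunk Hox genes, at 0.76. Cdx2 was 0.54 above the full lines and fell by 0.59 after 2i.

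Of 24 measured Polycomb and Trithorax genes, which hold Hox clusters silent or active, 9 were called higher and 0 lower in the partial line than in MEFs, and 16 higher and 2 lower in the full lines. Of all genes 13.7% were higher and 10% lower in the partial line, and 17.1% and 17.8% in the full lines. Jarid2, which recruits Polycomb complex 2, was 1.18 higher in the partial line and 2.83 higher in the full lines, and Phc1, of Polycomb complex 1, 1.48 and 2.64. Against the full lines the partial line had 8 of the 24 lower and 3 higher (5.78% and 12.8% of all genes), among them Jarid2 (-1.66) and Bmi1 (0.95), the latter a Polycomb complex 1 subunit. After 2i, 11 were called higher and 2 lower (9.36% and 13% of all genes), with Cbx7 at 1.82 and Bmi1 at -1.41.

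Of 35 other transcription factors of limb and trunk patterning, 9 were called lower and 2 higher in the partial line than in MEFs (10% and 13.7% of all genes). Osr1 (-1.79) and Meox2 (-1.67), of connective tissue and muscle precursors, had the largest falls, and Tbx4, a hindlimb factor, rose by 0.87. Tbx4 was 0.80 above the full lines and fell by 1.07 after 2i. The 32 measured genes nearest the clusters, 4 on each side, had 2 called higher and 2 lower in the partial line than in the full lines (median 0.12), near the 12.8% and 5.78% of all genes or below them, and 2 higher and 3 lower after 2i (median -0.01; 9.36% and 13% of all genes). Of 10 non-coding genes within or beside the clusters, 0 were called in limma between the partial line and MEFs (0 at an unadjusted p under 0.05), the full lines (1), J1 cells (0) or after 2i (0), and Mir10a was called lower in the converted cells than in MEFs (-0.35, adjusted p = 0.0147).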

How the data were processed

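The data were 18 whole-transcript arrays of mouse cells, 6 groups of 3. The deposited values are on the log2 scale and the submitters' processing notes name RMA, which corrects background, normalizes arrays to a common distribution and summarises probes. No version or genome build was named. Of 34760 probe sets, 21640 had a single gene symbol in the platform annotation, 1321 several and 11799 none. The probe set of the highest mean stood for a gene, which left 19937 genes. No probe was filtered out.

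From the deposited log2 values, limma 3.58.1 (R 4.3.3) fitted a mean per group over all 18 arrays with no block. The 2 full lines were averaged with equal weight. Benjamini-Hochberg adjustment covered all 19937 genes of a comparison with a call at an adjusted p under 0.05. The fit was tested on simulated data. The number of arrays limits the precision, and the correlation of replicates was 0.97 to 0.992.

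The members, lists, tests and named genes were chosen with earlier results of these data known. Values in all arrays are given for Hox genes called with a 2-fold difference (against MEFs, with no overlap of arrays; also among the other groups) and for the 2 largest called rises against MEFs. Other members are given by counts and ranges, and other lists by counts. The genes named from other lists were among the 2 largest called rises or falls of their list in at least 1 comparison, and their values in other comparisons stand beside these. Pou5f1, Nanog and Thy1 were checks of the labels.

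Deviations of arrays with the same replicate number correlated above 0.1 in all pairs for converted against partial cells, partial against J1 cells and EOS3F-28 against EOS3F-29. That was taken as pairing, though the main fit had no block. For converted against full cells and full lines against J1 cells the correlation was 0.421 to 0.579 in replicates 1 and 2. In replicate 3 it was -0.115 to -0.0497. Such pairing comes from the values, since no label says what a number marks. Alternatives were a replicate block, cyclic loess, centring on housekeeping genes, a minimum level, all probe sets, the mean of a gene's probe sets, trend and robust eBayes, only the arrays compared, either full line alone, an adjusted p under 0.01 and each array left out.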

Additional observations from a re-analysis of the deposited data

How the results depend on the processing

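In all comparisons and settings run, no called Hox gene changed sign. With the replicate number as a block (replicate block), 4 Hox genes were called between the full lines and J1 cells in place of 1; no other count moved by over 1.5 times, and the calls of Hoxb1 (adjusted p = 0.0551, limma) and Hoxd1 (0.0507) in J1 cells against MEFs were lost. Centring on housekeeping genes gave 1 call for the partial line against MEFs, 7 against the full lines and 10 against J1 cells, and 0 for the full lines against J1 cells. It moved the median of all genes to -0.12 (partial against MEFs), -0.19 (converted against MEFs), -0.11 (partial against full), -0.17 (converted against full) and -0.14 (partial against J1). Over all 19937 genes it gave 2728 calls (partial against MEFs), 1700 (partial against full), 2647 (partial against J1) and 277 (full against J1). With a highest group mean of at least 5, which only 6 Hox genes reached, the calls were 3 for partial, 5 for full, 5 for J1 and 6 for converted cells against MEFs. They were 5 for partial against full, 5 for converted against partial and 6 for partial against J1. Hoxa9 and Hoxb6 reached this level only in the partial line (5.04 and 5.08), so the choice itself can raise the counts that involve that line. Calls over all genes were not counted under this minimum, so these counts have no share beside them. At an adjusted p under 0.01, there were 2 Hox calls for partial against MEFs, 13 for partial against J1, 0 for converted against full and 0 for full against J1. For converted against full cells the count was also 0 with all probe sets tested, EOS3F-28 left out or the 5 replicate 1 arrays left out, the last chosen after seeing the data. For the full lines against J1 cells it was 0 in these 3 settings, with trend and robust eBayes and with only the arrays compared. Leaving out 1 array in turn gave 4 to 6 calls for partial against MEFs, 0 to 2 for converted against full and 0 to 3 for full against J1. The cause of these changes was not tested, beyond the smaller number of genes or arrays in some fits. Values near the array's background limit what small differences show.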

Other observations

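1 probe set carried the symbols of both Hoxb8 and Hoxb7 and was left out of the counts. Its log2 values were 3.80, 3.94 and 3.51 in MEFs and 3.39, 3.34 and 3.60 in the partial line. Its group means were 3.44 in the partial line, 3.56 in the converted cells, 3.41 in EOS3F-28, 3.59 in EOS3F-29 and 3.42 in J1 cells.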
